A study of Homo sapiens with 12 samples.

Results

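The mitochondrial respiratory chain and ATP synthase are built from subunits of both nuclear and mitochondrial DNA, and the transcripts of 59 nuclear-encoded subunits were followed here through inhibition of PTDSS1, an enzyme that makes phosphatidylserine. The members were taken from a list of gene symbols, 32 for complex I, 4 for complex II, 7 for complex III, 9 for complex IV and 7 for complex V, and the rule used no measured value. All 59 were found in both raw count tables under the same Ensembl identifiers, among 30358 genes that the tables share, and all 59 passed the filter on low counts in both cell lines.

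RNA was prepared as poly-A libraries from KYSE30, an esophageal squamous cell carcinoma (ESCC) line, and from cells labelled U138MG, a glioblastoma (GBM) line. Both lines were labelled wild type. In each line, 3 libraries came from cells given the vehicle DMSO and 3 from cells given 100 nM of the PTDSS1 inhibitor DS55980254 (PTDSS1i), all for 48 h, which makes 12 libraries with totals of 18800932 to 26514658 counts. Every KYSE30 library was labelled as batch 1 and every U138MG library as batch 2, so line and batch cannot be told apart, while the treatment was compared within a batch. The labels do not say whether the 3 libraries of a group came from separate cultures, and p-values measure the spread between these libraries, which may be technical. The U138MG-labelled libraries went against their label: 10 squamous epithelial markers summed to between 7757 and 8584 CPM (normalized to library size) under DMSO, with 8 of 10 over 1 CPM in every DMSO library, while 10 glial markers summed to between 40.0 and 44.2 CPM with 4 over 1 CPM. In KYSE30 the same sums were 1384 to 1507 CPM and 108 to 138.1 CPM, with 7 and 2 markers over 1 CPM in every DMSO library. KRT5, KRT14 and PKP1 were at most 0.133, 0.532 and 0.148 CPM in those libraries. Of the glial sum there, SLC1A3 alone gave 102 to 128 CPM. The U138MG-labelled libraries are therefore called by their label only.

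The chain passes electrons from NADH through complex I and from succinate through complex II to ubiquinone, then through complex III, cytochrome c and complex IV to oxygen. Complexes I, III and IV move protons across the inner membrane as they do so, and complex V, the ATP synthase, uses the returning protons to make ATP. Mitochondrial DNA encodes some subunits of every complex other than complex II, so the products of both genomes must be assembled together. Phosphatidylserine is carried into mitochondria and decarboxylated there to phosphatidylethanolamine, a lipid of the inner membrane in which these complexes sit.

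PTDSS1i moved most of the subunit genes little, and more of them down than up. In KYSE30 the log2 fold changes of PTDSS1i over DMSO lay between -0.55 and 0.23 with a median of -0.12, against a median of -0.025 over all genes tested. There 47 of 59 members were below 0, as were 8511 of all 16389 genes. In the U138MG-labelled libraries 37 of 59 members were below 0, as were 9165 of all 17666 genes. A gene is called here when the adjusted p of edgeR's quasi-likelihood test over all tested genes was under 0.05. By that rule 3 members were higher, 23 were lower and 33 were not called, which is 44.1% of members called against 62% of all 16389 genes tested (30.1% higher and 32% lower). Without DMSO library 2 or without PTDSS1i library 3 only 1 member was higher, and 29 or 21 were lower. In the U138MG-labelled libraries the range was -0.60 to 0.56 with a median of -0.084, against -0.026 over all genes, and 12 members were higher, 22 lower and 25 not called, 57.6% of members against 67.5% of all 17666 genes (33.9% higher and 33.6% lower). The groups of libraries did not overlap for 3 members above and 22 below DMSO in KYSE30, where all genes gave 32.1% above, 34.2% below and 66.3% in either direction. In the other line this held for 14 above and 23 below, against 35.5%, 35.9% and 71.4% of all genes. No member passed a fold of 2 in either line, where 13.4% and 19.8% of all genes were called with such a fold. The median size of a member's change, without its sign, was 0.16 in KYSE30 and 0.15 in the U138MG-labelled libraries, against 0.36 and 0.43 for all genes.

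The number of members called in each direction depended on the scaling between libraries, and the sign of some of the smallest changes turned with it. The values above use TMM factors. With library totals alone the median over all genes moved to -0.13 in KYSE30 and -0.17 in the U138MG-labelled libraries, and members were called 0 higher and 41 lower, and 4 higher and 43 lower. Upper-quartile factors gave 2 higher and 25 lower in KYSE30 and 4 higher and 42 lower in the U138MG-labelled libraries. Under TMM, library totals, upper-quartile factors and DESeq2 alike, 20 members stayed called lower in KYSE30 and none higher, and 20 stayed lower and 4 higher in the U138MG-labelled libraries. Those 4 were NDUFS6, NDUFS8, SDHB and COX7A2. The whole library changed beside them: 12 proliferation genes were all called lower in both lines, and their summed level went from 2376-2458 to 711-748 CPM in KYSE30 and from 1303-1433 to 462-509 CPM in the U138MG-labelled libraries. Markers of cell types moved too, and the sum of the squamous epithelial markers went in opposite directions in the lines. Gene by gene, 3 were called higher in KYSE30 and lower in the U138MG-labelled libraries, 3 higher in both and 1 lower in both. KRT15 alone went, by library totals, from 4500-5145 to 409-484 CPM in the U138MG-labelled libraries and from 38.6-42.8 to 71.4-78.4 CPM in KYSE30. With library totals the 10 squamous epithelial markers went from 1384-1507 to 1980-2065 CPM in KYSE30 (6 called higher and 1 lower) and from 7757-8584 to 2286-2431 CPM in the U138MG-labelled libraries (3 higher and 6 lower). The 10 mesenchymal markers went from 111-162 to 97.3-100.5 CPM in KYSE30 (4 called higher and 3 lower). In the U138MG-labelled libraries they went from 844-876 to 450-465 CPM (1 higher and 3 lower). FN1 made the largest part of the first sum and SPARC of the second, while VIM rose in KYSE30 from 3.08-4.94 to 21.9-27.1 CPM. The glial markers went from 108-138.1 to 81.5-92.3 CPM (0 higher and 1 lower) and from 40.0-44.2 to 29.4-30.5 CPM (1 higher and 3 lower). The part of these genes in the members' changes was not tested.

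**Figure D1:**
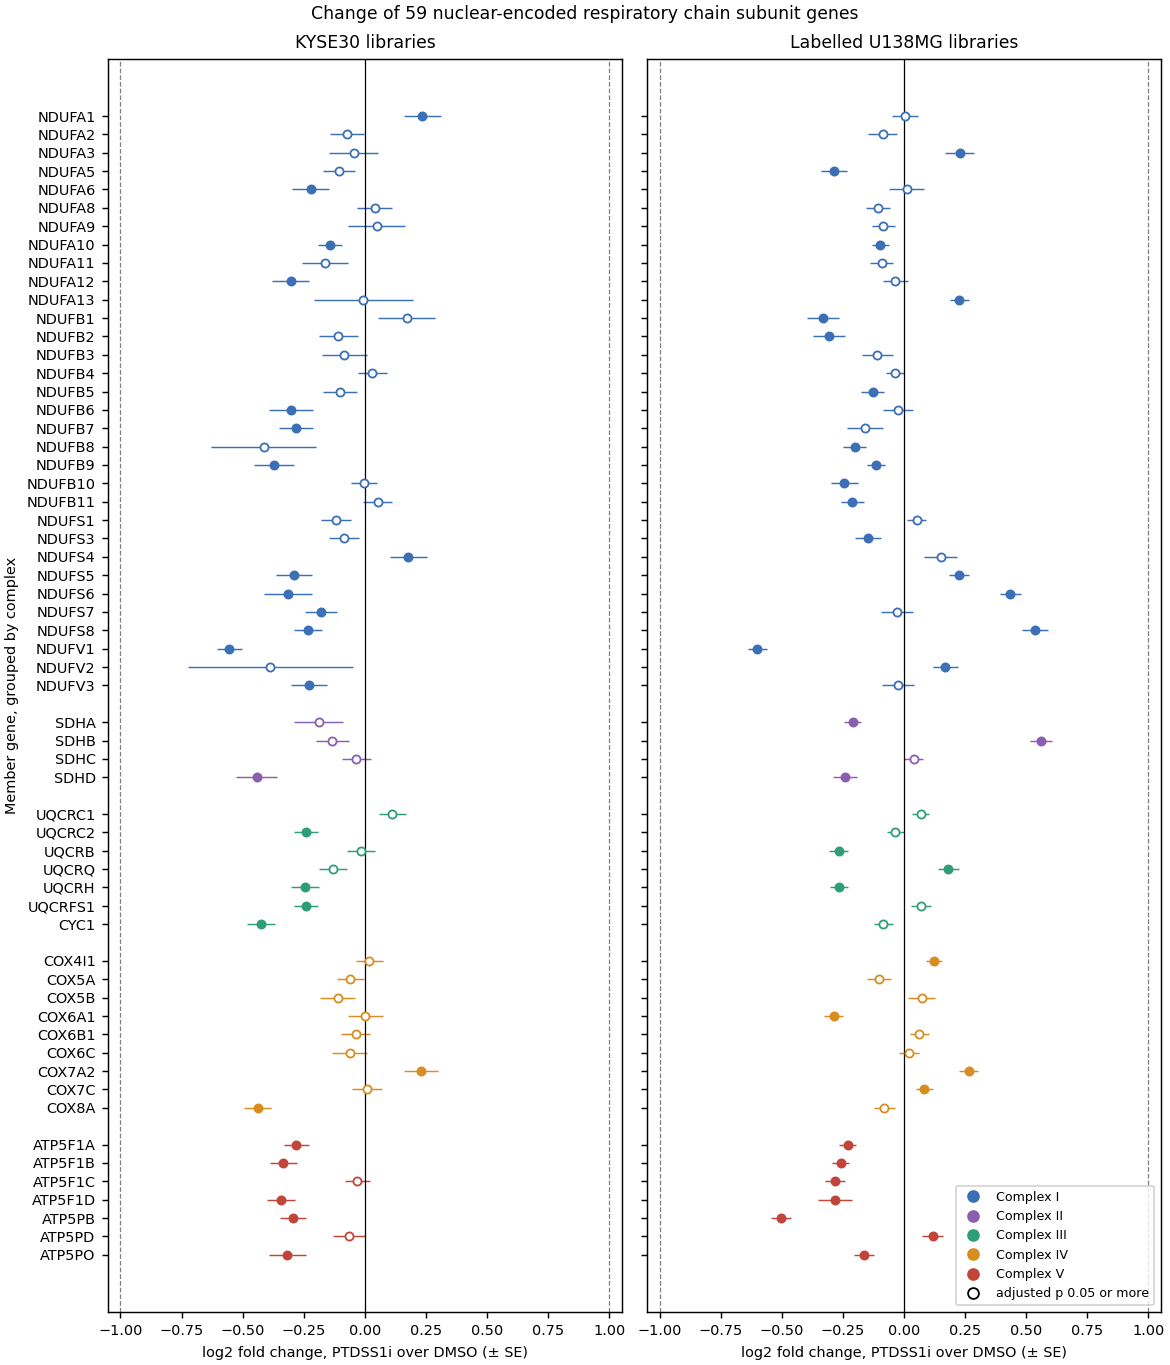
Log2 fold change of PTDSS1i over DMSO with its standard error (x axis) for each of the 59 members (y axis, grouped by complex) in KYSE30 (left) and in the U138MG-labelled libraries (right). Filled points have an adjusted p under 0.05, dashed lines mark a fold of 2, which no member reached, and 5 of 7 (left) and 6 of 7 (right) complex V genes are filled to the left of 0.

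Complex I takes electrons from NADH. Of its 32 members, 2 were called higher and 12 lower in KYSE30 (median -0.11), and 6 higher and 11 lower in the U138MG-labelled libraries (median -0.085). With library totals alone these became 0 higher and 20 lower (median -0.22) and 2 higher and 24 lower (median -0.23), and upper-quartile factors also gave 2 higher and 24 lower in the U138MG-labelled libraries. Under TMM 43.8% and 53.1% of the 32 were called, against 62% and 67.5% of all genes. Of all genes 30.1% were higher and 32% lower in KYSE30, and 33.9% and 33.6% in the other line. NDUFV1, the flavoprotein that binds NADH and the flavin, had the largest fall of all members in both lines. It measured 179, 168 and 163 CPM under DMSO and 117, 116 and 115 CPM under PTDSS1i in KYSE30, and 172, 171 and 162 CPM under DMSO and 111, 108 and 114 CPM under PTDSS1i in the U138MG-labelled libraries. All PTDSS1i libraries lay under all DMSO libraries in both lines. CPM were scaled within each line, so levels are not compared between the lines. NDUFV1 fell by 31.9% in KYSE30, a log2 fold change of -0.55 ± 0.051 (SE, edgeR adjusted p = 4.98e-09), and by 34.0% in the U138MG-labelled libraries, -0.60 ± 0.038 (SE, edgeR adjusted p = 3.39e-14). The difference between the lines was not called for this gene.

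NDUFS8, an iron-sulfur subunit near the ubiquinone site, moved in opposite directions. In KYSE30 it measured 133, 115 and 119 CPM under DMSO and 101, 106 and 105 CPM under PTDSS1i, a log2 fold change of -0.23 ± 0.056 (SE, edgeR adjusted p = 0.00112). In the U138MG-labelled libraries it measured 48.5, 44.9 and 47.0 CPM under DMSO and 64.6, 64.8 and 73.8 CPM under PTDSS1i, a log2 fold change of 0.54 ± 0.054 (SE, edgeR adjusted p = 1.33e-09). The groups did not overlap in either line.

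NDUFS6, a zinc-binding accessory subunit, showed the same pattern with 37.9, 26.9 and 32.7 CPM under DMSO and 26.0, 25.3 and 27.1 CPM under PTDSS1i in KYSE30, where DMSO library 2 lay inside the treated range, and 92.6, 87.3 and 98.04 CPM under DMSO and 122, 125 and 128 CPM under PTDSS1i in the U138MG-labelled libraries. Its log2 fold changes were -0.31 ± 0.099 (SE, edgeR adjusted p = 0.0123) and 0.44 ± 0.042 (SE, edgeR adjusted p = 3.66e-10), and without DMSO library 3 the KYSE30 value was -0.31 and was not called (edgeR adjusted p = 0.0619). NDUFS5, an accessory subunit of the intermembrane space side, measured 49.8, 42.2 and 52.9 CPM under DMSO and 39.5, 37.7 and 41.5 CPM under PTDSS1i in KYSE30, a log2 fold change of -0.29 ± 0.074 (SE, edgeR adjusted p = 0.00197). In the U138MG-labelled libraries it measured 105, 102 and 102 CPM under DMSO and 114, 122 and 126 CPM under PTDSS1i, 0.22 ± 0.041 (SE, edgeR adjusted p = 2.23e-05), with no overlap of groups, although with library totals or upper-quartile factors this rise was not called. These 3 were the members called in opposite directions in the lines.

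NDUFA1, a small membrane subunit needed for assembly, was the largest rise of complex I in KYSE30, where it measured 25.0, 21.0 and 24.8 CPM under DMSO and 27.9, 27.0 and 28.4 CPM under PTDSS1i, with a log2 fold change of 0.23 ± 0.075 (SE, edgeR adjusted p = 0.0101). Without DMSO library 2 this rise was not called (0.15, edgeR adjusted p = 0.0677). NDUFA1 was not called in the U138MG-labelled libraries, where it measured 64.0, 62.9 and 60.8 CPM under DMSO and 57.5, 61.8 and 68.8 CPM under PTDSS1i and the groups overlapped. The core subunits, those with a counterpart in bacteria, were NDUFS1, NDUFS3, NDUFS7, NDUFS8, NDUFV1 and NDUFV2 among the members. In KYSE30 0 of these 6 were higher and 3 lower (median -0.21), and in the U138MG-labelled libraries 2 were higher and 2 lower (median 0.013). The 26 accessory subunits had medians of -0.10 and -0.089. This split was made with the values in view, and the sign of the core median in the U138MG-labelled libraries is within the shift between scalings.

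For 3 complex I genes the KYSE30 table held few counts. NDUFV2, an iron-sulfur flavoprotein subunit, summed to 82 counts over its 6 KYSE30 libraries, as did its pseudogene NDUFV2P1, which held only 2.63% of the counts of both in the U138MG-labelled libraries, and measured 0.976, 0.554 and 0.637 CPM under DMSO and 0.512, 0.458 and 0.660 CPM under PTDSS1i, while in the U138MG-labelled libraries it measured 53.5, 47.5 and 50.3 CPM under DMSO and 54.5, 57.2 and 58.2 CPM under PTDSS1i. NDUFA13, a subunit also studied in cell death, measured 2.10, 2.27 and 1.61 CPM under DMSO and 1.96, 1.83 and 2.10 CPM under PTDSS1i in KYSE30 and 114, 119.7 and 119 CPM under DMSO and 140.0, 133 and 139.9 CPM under PTDSS1i in the U138MG-labelled libraries. NDUFB8, often used as an antibody marker of assembled complex I, measured 1.95, 2.27 and 2.55 CPM under DMSO and 2.19, 1.43 and 1.48 CPM under PTDSS1i in KYSE30 and 71.4, 69.1 and 71.9 CPM under DMSO and 63.7, 58.4 and 62.6 CPM under PTDSS1i in the U138MG-labelled libraries. None of the 3 was called in KYSE30, with overlapping groups, and in the U138MG-labelled libraries NDUFV2 and NDUFA13 were higher (0.17 ± 0.052 (SE, edgeR adjusted p = 0.00527) and 0.23 ± 0.038 (SE, edgeR adjusted p = 5.79e-06)) and NDUFB8 lower (-0.20 ± 0.046 (SE, edgeR adjusted p = 3.62e-04)). In the GENCODE annotation each of these genes shares exon bases with another gene on the same strand, as do 15 of the 59 members in all, well-counted ones such as NDUFV1, NDUFS3 and COX8A included. Others of the 15 held fewer counts in the KYSE30 table than in the other: NDUFA9 (967 against 8168), NDUFA11 (1751 against 10115), COX6A1 (5057 against 21547) and ATP5PO (2971 against 12598). NDUFS6, with no such overlap, did too (3790 against 14850). The rises of NDUFV2 and NDUFA13 were not called with library totals or upper-quartile factors, and that of NDUFV2 was lost without DMSO library 2 (0.13, edgeR adjusted p = 0.0525). How the 2 tables treated such reads is not given in the sources used here, so the low KYSE30 levels cannot be read as low expression.

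Complex II is succinate dehydrogenase, which also serves the tricarboxylic acid cycle and is wholly nuclear-encoded. Its 4 genes did not move together. SDHB, the iron-sulfur subunit, had the largest rise of all members in the U138MG-labelled libraries. It measured 75.5, 72.5 and 71.7 CPM under DMSO and 103, 105 and 115 CPM under PTDSS1i there, a rise of 47.5% and a log2 fold change of 0.56 ± 0.045 (SE, edgeR adjusted p = 6.06e-12), with no overlap. In KYSE30 it measured 122, 97.6 and 103 CPM under DMSO and 97.7, 102 and 94.8 CPM under PTDSS1i, the groups overlapped and it was not called (-0.13 ± 0.068 (SE, edgeR adjusted p = 0.0969)). SDHD, a membrane anchor, fell in both lines. It measured 30.0, 27.1 and 34.9 CPM under DMSO and 23.3, 21.3 and 23.2 CPM under PTDSS1i in KYSE30 and 64.0, 59.8 and 64.9 CPM under DMSO and 51.0, 53.8 and 54.8 CPM under PTDSS1i in the U138MG-labelled libraries, log2 fold changes of -0.44 ± 0.084 (SE, edgeR adjusted p = 1.08e-04) and -0.24 ± 0.049 (SE, edgeR adjusted p = 8.89e-05), again with no overlap. SDHC, the other anchor, was called in neither line (-0.035 and 0.039).

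SDHA, the flavoprotein, measured 12.4, 12.1 and 11.0 CPM under DMSO and 11.4, 9.52 and 10.1 CPM under PTDSS1i in KYSE30, where the groups overlapped and it was not called, and 219.9, 227 and 220.0 CPM under DMSO and 198, 184 and 195 CPM under PTDSS1i in the U138MG-labelled libraries, a log2 fold change of -0.21 ± 0.036 (SE, edgeR adjusted p = 7.99e-06). Its reads can fall on near copies. Named SDHA pseudogenes held 93.4% of the counts of SDHA and its copies in KYSE30 (10742 counts for SDHAP1 against 1431 for SDHA) and 47.35% in the other table, so the SDHA values are uncertain in both.

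Motifs of respiratory chain regulators were searched in the promoters, and those of NDUFV1, NDUFS8 and SDHB, members with marked changes, are shown. That of ATP5PO, whose changes were not among the largest, is shown as a further example. Each run holds the 250 bases before the RefSeq start site (build GRCh38.p14, read 5′ to 3′ on the gene's strand), and capitals mark a match to the NRF1 letters GCGCNTGCG, the ETS letters CCGGAAG or the YY1 letters ATGGCGGC.
NDUFV1 (chr11:67606686-67606935, plus strand): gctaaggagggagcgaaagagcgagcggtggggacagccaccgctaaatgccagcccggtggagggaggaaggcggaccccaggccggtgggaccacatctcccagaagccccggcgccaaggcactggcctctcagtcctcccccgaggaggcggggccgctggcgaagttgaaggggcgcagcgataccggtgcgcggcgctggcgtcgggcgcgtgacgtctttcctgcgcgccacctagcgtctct
NDUFS8 (chr11:68030431-68030680, plus strand): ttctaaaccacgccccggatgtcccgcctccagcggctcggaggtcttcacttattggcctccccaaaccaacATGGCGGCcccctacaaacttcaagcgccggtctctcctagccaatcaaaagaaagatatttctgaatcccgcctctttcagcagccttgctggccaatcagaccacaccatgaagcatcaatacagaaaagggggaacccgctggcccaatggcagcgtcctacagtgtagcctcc
SDHB (chr1:17054033-17054282, minus strand): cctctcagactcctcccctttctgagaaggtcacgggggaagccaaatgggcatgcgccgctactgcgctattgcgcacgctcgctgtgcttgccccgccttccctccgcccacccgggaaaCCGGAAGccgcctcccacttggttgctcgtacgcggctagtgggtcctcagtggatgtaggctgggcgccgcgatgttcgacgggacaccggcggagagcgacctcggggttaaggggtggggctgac
ATP5PO (chr21:33915805-33916054, minus strand): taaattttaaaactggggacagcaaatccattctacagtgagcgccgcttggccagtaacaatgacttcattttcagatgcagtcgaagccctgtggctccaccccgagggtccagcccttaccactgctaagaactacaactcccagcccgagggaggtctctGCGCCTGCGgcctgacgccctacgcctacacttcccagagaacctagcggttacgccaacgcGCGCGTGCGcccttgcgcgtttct
NDUFV1, which fell in both lines, held none of the 3 in this window. NDUFS8 held a YY1 match, SDHB an ETS match and ATP5PO 2 NRF1 matches. ATP5PB, with the largest called fall of complex V in the U138MG-labelled libraries, is not shown and held none of the 3 in the longer window below. NRF1, ETS-family factors of the GABP type and YY1 are known regulators of respiratory chain genes. In a window of 300 bases that adds 50 after the start, on both strands and with motifs allowed to overlap, NRF1 letters were found in 17 of the 50 members that matched a RefSeq promoter (against 9.0% of 27305 RefSeq genes), ETS letters in 16 (12.2% of all these genes) and YY1 letters in 10 (3.7%). Each gene was counted once, with a match in any of its promoters. The RefSeq genes were not limited to those tested here. SP1 letters GGGCGG were found in 66.0% of these members and 48.3% of all RefSeq genes, CCAAT in 28.0% and 39.7%, and the C/EBP-ATF element letters TGATGNAA in 4.0% and 4.5%. Of the 11 members called higher in the U138MG-labelled libraries that had a promoter, 2 held the NRF1 letters, 5 the ETS letters and 4 the YY1 letters. Of the 17 called lower there, 6, 5 and 2 did. In KYSE30 the 18 called lower with a promoter held them in 7, 5 and 2 cases, and the 3 called higher in 0, 1 and 1. Members not called held them in 10, 10 and 7 of 29 cases in KYSE30. In the U138MG-labelled libraries those not called held them in 9, 6 and 4 of 22 cases. A link between these letters and the direction of change was not tested. NDUFB5, NDUFB9, NDUFS5, SDHC, UQCRB, CYC1, COX6C, ATP5F1B and ATP5F1D were not matched.

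Complex III passes electrons from ubiquinol to cytochrome c. In KYSE30 4 of its 7 genes were lower and none higher (median -0.24), and in the U138MG-labelled libraries 1 was higher and 2 lower (median -0.035). That is 57.1% and 42.9% called, against 62% and 67.5% of all genes. CYC1, the cytochrome c1 subunit that carries the electron to cytochrome c, measured 229, 194 and 212 CPM under DMSO and 164, 158 and 151 CPM under PTDSS1i in KYSE30 with no overlap, a log2 fold change of -0.43 ± 0.059 (SE, edgeR adjusted p = 1.91e-06). In the U138MG-labelled libraries it measured 99.4, 101 and 102 CPM under DMSO and 93.5, 97.1 and 94.3 CPM under PTDSS1i, and although the treated libraries all lay lower, it was not called (-0.084 ± 0.039 (SE, edgeR adjusted p = 0.0580)). UQCRFS1, the Rieske iron-sulfur protein, changed by -0.24 on the log2 scale in KYSE30, where it was called, and by 0.070 in the other line, where it was not.

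The small subunits of complex III differed from each other in the U138MG-labelled libraries. UQCRB, which lies near the ubiquinone site, measured 143, 135 and 132 CPM under DMSO and 112, 112 and 117 CPM under PTDSS1i, a log2 fold change of -0.27 ± 0.039 (SE, edgeR adjusted p = 8.86e-07). UQCRQ, another small subunit close to cytochrome b, measured 88.9, 83.1 and 85.7 CPM under DMSO and 92.9, 99.7 and 99.6 CPM under PTDSS1i, 0.18 ± 0.042 (SE, edgeR adjusted p = 4.70e-04). Both pairs of groups were apart. In KYSE30 neither was called: UQCRB measured 121, 118 and 134 CPM under DMSO and 116, 127 and 126 CPM under PTDSS1i and UQCRQ 91.3, 79.0 and 88.6 CPM under DMSO and 78.6, 77.3 and 80.8 CPM under PTDSS1i, with overlap in both. UQCRH, the acidic hinge protein, was lower in both lines (-0.24 and -0.26). The UQCRQ rise was not called with library totals or upper-quartile factors.

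Complex IV, cytochrome c oxidase, reduces oxygen. Its 9 nuclear genes had medians of -0.038 in KYSE30 and 0.062 in the U138MG-labelled libraries, the second of which turned to -0.085 with library totals and to -0.083 with upper-quartile factors. Its calls in the U138MG-labelled libraries, 3 higher and 1 lower under TMM, became 1 higher and 5 lower, and 1 higher and 4 lower. Under TMM 22.2% of the 9 were called in KYSE30 and 44.4% in the other line, against 62% and 67.5% of all genes. COX7A2, a small subunit in its widely expressed form, was the single member called higher in both lines. It measured 47.7, 43.2 and 50.3 CPM under DMSO and 50.7, 55.4 and 59.6 CPM under PTDSS1i in KYSE30 and 135, 122 and 125 CPM under DMSO and 150.4, 151 and 159 CPM under PTDSS1i in the U138MG-labelled libraries, log2 fold changes of 0.23 ± 0.069 (SE, edgeR adjusted p = 0.00638) and 0.26 ± 0.040 (SE, edgeR adjusted p = 1.39e-06). The treated libraries were above the DMSO libraries in both lines. With library totals alone, or without PTDSS1i library 3 (0.17, edgeR adjusted p = 0.0589), the KYSE30 rise was not called, while the rise in the U138MG-labelled libraries was.

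COX8A, another small membrane subunit, measured 98.9, 101 and 92.3 CPM under DMSO and 72.1, 68.9 and 74.3 CPM under PTDSS1i in KYSE30, a log2 fold change of -0.44 ± 0.055 (SE, edgeR adjusted p = 4.86e-07), and was the largest fall of this complex there. It measured 83.0, 80.3 and 85.2 CPM under DMSO and 76.7, 77.9 and 80.6 CPM under PTDSS1i in the U138MG-labelled libraries and was not called. COX6A1, which sits at the dimer interface and shares exon bases as described above, showed the reverse. It measured 181, 177 and 167 CPM under DMSO and 144, 139 and 147 CPM under PTDSS1i in the U138MG-labelled libraries, a log2 fold change of -0.29 ± 0.038 (SE, edgeR adjusted p = 1.37e-07), and 38.3, 40.1 and 38.7 CPM under DMSO and 41.8, 34.3 and 41.0 CPM under PTDSS1i in KYSE30, where the groups overlapped and the direction, 0.0021, turned with the scaling. COX4I1, a subunit that starts assembly of the complex around the catalytic core, was not called in KYSE30 (0.017) and was higher by 0.12 in the U138MG-labelled libraries under TMM, a sign that turned with library totals or upper-quartile factors.

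Complex V had the lowest median of the 5 in both lines, -0.30 in KYSE30 and -0.26 in the U138MG-labelled libraries, and these became -0.40 and -0.41 with library totals. No complex V gene was higher in KYSE30 and 5 of 7 were lower, and 1 was higher and 6 lower in the U138MG-labelled libraries. Of all genes, 32% were lower in KYSE30 and 33.6% in the other line. All 5 that were lower in KYSE30 (ATP5F1A, ATP5F1B, ATP5F1D, ATP5PB and ATP5PO) were lower in the other line as well, and each stayed so under all 4 scalings in both. The summed level of the 7 genes went from 1365-1513 to 1182-1214 CPM in KYSE30, and from 1348-1397 to 1144-1194 CPM in the U138MG-labelled libraries, with no overlap of groups in either. The 4 genes of the catalytic head and its central stalk had medians of -0.31 and -0.27, and the 3 of the peripheral stalk -0.30 and -0.16.

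ATP5PB, a stalk subunit that holds the head in place, measured 129.8, 123 and 126 CPM under DMSO and 86.5, 86.9 and 94.4 CPM under PTDSS1i in the U138MG-labelled libraries, a fall of 29.4% and a log2 fold change of -0.50 ± 0.041 (SE, edgeR adjusted p = 1.24e-11). In KYSE30 it measured 219, 199.95 and 217 CPM under DMSO and 166, 173 and 179.6 CPM under PTDSS1i, -0.30 ± 0.053 (SE, edgeR adjusted p = 5.08e-05). ATP5F1D, the delta subunit of the central stalk, measured 116, 109.9 and 101 CPM under DMSO and 87.6, 85.9 and 83.6 CPM under PTDSS1i in KYSE30 and 31.2, 32.4 and 37.4 CPM under DMSO and 28.4, 28.6 and 26.2 CPM under PTDSS1i in the U138MG-labelled libraries, log2 fold changes of -0.34 ± 0.056 (SE, edgeR adjusted p = 1.76e-05) and -0.28 ± 0.070 (SE, edgeR adjusted p = 7.77e-04). In both genes and both lines every treated library was below every DMSO library. ATP5PO, whose product joins the stalk to the head, changed by -0.32 and -0.16. It shares exon bases as described above, so its KYSE30 level is uncertain.

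ATP5PD was the exception in the stalk. It measured 113, 106 and 118 CPM under DMSO and 119, 97.2 and 106 CPM under PTDSS1i in KYSE30, where the groups overlapped and it was not called, and 88.2, 84.6 and 80.5 CPM under DMSO and 90.5, 89.2 and 95.3 CPM under PTDSS1i in the U138MG-labelled libraries, 0.12 ± 0.043 (SE, edgeR adjusted p = 0.0179). That last call was lost, and its sign turned, with library totals or upper-quartile factors. ATP5F1C, the rotating gamma subunit, was lower in the U138MG-labelled libraries (-0.28 ± 0.040 (SE, edgeR adjusted p = 5.24e-07)) and was not called in KYSE30 (-0.031 ± 0.049 (SE, edgeR adjusted p = 0.608)).

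**Figure D2:**
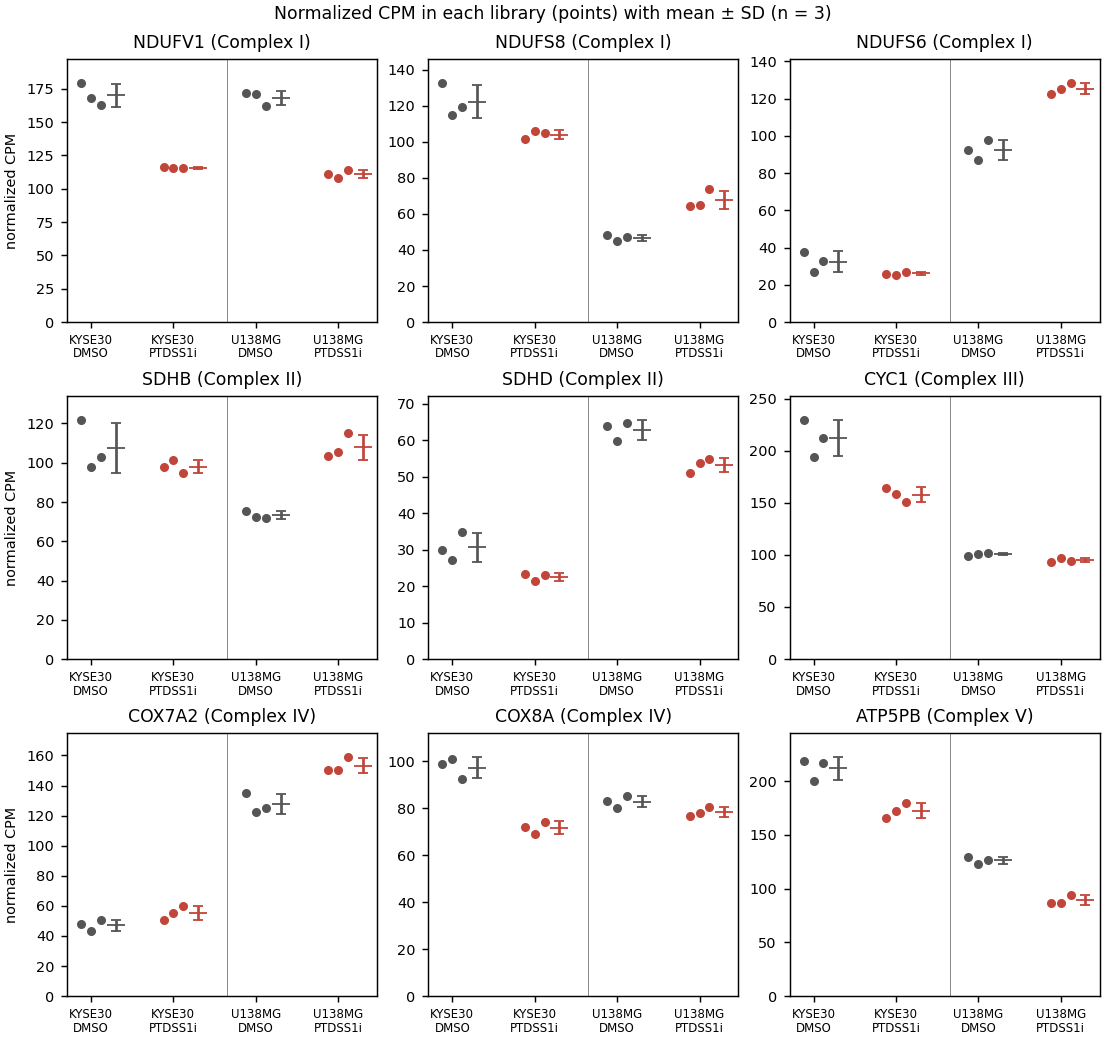
Normalized CPM (y axis, from 0) in each of the 12 libraries for 9 members, with DMSO in grey and PTDSS1i in red and the mean with SD (n = 3) to the right of each group of points. NDUFV1, SDHD and ATP5PB lie lower under PTDSS1i in both lines, COX7A2 lies higher in both, and NDUFS8 and NDUFS6 go down in KYSE30 and up in the U138MG-labelled libraries.

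Differences between the lines were tested next. The interaction of line and treatment over 18405 genes called 19 of 59 members, where 49.9% of all genes were called. The change in the U138MG-labelled libraries was higher than in KYSE30 for 10 members and lower for 9 (25.5% and 24.4% of all genes). With upper-quartile factors the split was 7 and 18, and 7 of the higher and 9 of the lower members were called under all 4 scalings. NDUFS8 differed most by its p, with a log2 difference (U138MG minus KYSE30) of 0.73 ± 0.081 (SE, edgeR adjusted p = 7.52e-09), followed by SDHB with 0.66 ± 0.092 (SE, edgeR adjusted p = 3.33e-06). NDUFS5 and NDUFS6 followed with 0.47 ± 0.089 (SE, edgeR adjusted p = 5.64e-05) and 0.71 ± 0.12 (SE, edgeR adjusted p = 1.33e-04), and COX8A came next with 0.32 ± 0.069 (SE, edgeR adjusted p = 2.36e-04). Complex III held 5 of the called members, UQCRFS1, CYC1, UQCRQ and UQCRC2 higher and UQCRB lower. Members called the other way included NDUFB1 with -0.54 ± 0.13 (SE, edgeR adjusted p = 9.94e-04) and COX6A1 with -0.33 ± 0.080 (SE, edgeR adjusted p = 8.44e-04). Over both lines, 10 of 59 members were called lower in both (15.5% of the 13990 genes tested in both lines were), 1 higher in both (18.5% of all), 3 in opposite directions (14.9% of all) and 13 in neither (12.7% of all).

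**Figure D3:**
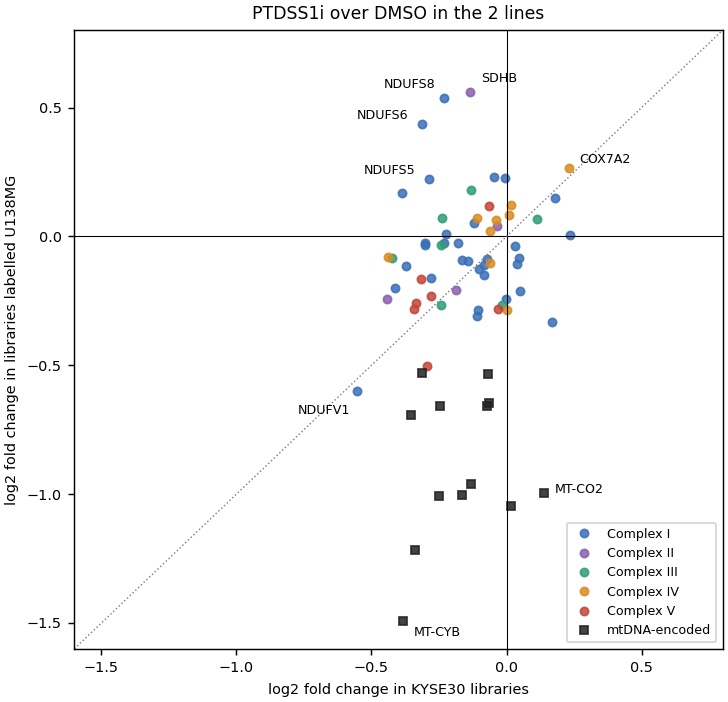
Log2 fold change in KYSE30 (x axis) against that in the U138MG-labelled libraries (y axis) for the 59 members (circles, coloured by complex) and the 13 mtDNA-encoded subunits (black squares), with equal values on the dotted line. NDUFV1 lies low on both axes, SDHB, NDUFS8, NDUFS6 and NDUFS5 lie above 0 on the y axis and below 0 on the x axis, and every square lies under -0.5 on the y axis.

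The 13 subunits of complexes I, III, IV and V that mitochondrial DNA encodes fell furthest in the U138MG-labelled libraries. All 13 were called lower there, with a median of -0.96, and 5 of them by more than a fold of 2. In KYSE30 1 was higher (MT-CO2) and 7 were lower, with a median of -0.16, and with library totals 0 were higher and 11 lower. The MT-CO2 call was lost with library totals or upper-quartile factors and in 5 of the 6 fits that left out a library, all but that without DMSO library 1 (log2 fold changes of 0.094 to 0.15 in those 5, edgeR adjusted p = 0.0879 to 0.186). The difference between the lines was called for all 13, each lower in the U138MG-labelled libraries, with a median of -0.80. MT-CYB, the cytochrome b of complex III, measured 3193, 2598 and 3164 CPM under DMSO and 1069, 1081 and 1038 CPM under PTDSS1i in those libraries, a log2 fold change of -1.49 ± 0.092 (SE, edgeR adjusted p = 5.28e-05). In KYSE30 it measured 4684, 4433 and 4251 CPM under DMSO and 3436, 3334 and 3483 CPM under PTDSS1i, -0.38 ± 0.057 (SE, edgeR adjusted p = 5.52e-06). MT-CO2, a catalytic subunit of complex IV, measured 4868, 4148 and 4879 CPM under DMSO and 2318, 2316 and 2346 CPM under PTDSS1i in the U138MG-labelled libraries and 5268, 4705 and 4905 CPM under DMSO and 5385, 5424 and 5557 CPM under PTDSS1i in KYSE30, log2 fold changes of -0.99 ± 0.058 (SE, edgeR adjusted p = 8.94e-08) and 0.14 ± 0.059 (SE, edgeR adjusted p = 0.0476).

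Set beside each other within complex IV of the U138MG-labelled libraries, MT-CO1, MT-CO2 and MT-CO3 changed by -1.01, -0.99 and -1.22 and the 9 nuclear members by -0.29 to 0.26. Within complex V, MT-ATP6 and MT-ATP8 changed by -0.53 and -1.004 and the 7 nuclear members by -0.50 to 0.12. The remaining complex I genes MT-ND1, MT-ND2, MT-ND3, MT-ND4, MT-ND4L, MT-ND5 and MT-ND6 changed there by -0.53, -0.69, -1.04, -0.66, -0.66, -0.64 and -0.96. In KYSE30 these 7 changed by -0.067, -0.35, 0.016, -0.25, -0.073, -0.067 and -0.13. MT-ND6, the one gene of this set on the other strand of mitochondrial DNA, stood at 23.97 ± 1.68 CPM under DMSO in KYSE30 and at 1275 ± 93.2 CPM in the U138MG-labelled libraries. Whether strand was used in counting is not given in the sources used here.

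As a share of all counts, which amounts to scaling by library totals, the 59 members took 0.496-0.533% of a library under DMSO and 0.423-0.427% under PTDSS1i in KYSE30, and 0.671-0.689% and 0.581-0.607% in the U138MG-labelled libraries. The 13 mtDNA-encoded subunits took 6.71-7.13% and 5.41-5.69% in KYSE30, and 5.38-5.77% and 2.75-2.80% in the U138MG-labelled libraries. The groups did not overlap in any of these 4 comparisons, but under TMM the summed level of the members in the U138MG-labelled libraries, 6386-6574 CPM under DMSO and 6090-6418 CPM under PTDSS1i, did overlap. Under TMM the members in KYSE30 (4692-5266 and 4369-4440.5 CPM) and the mtDNA-encoded subunits in both lines stayed apart. The mitochondrial ribosomal RNAs, which poly-A selection captures only in part, went the other way, from 0.543-0.600% to 1.03-1.09% in KYSE30 and from 1.11-1.15% to 1.654-1.751% in the U138MG-labelled libraries. Fewer mitochondrial transcripts per cell and a larger pool of other RNA cannot be told apart in such shares.

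**Figure D4:**
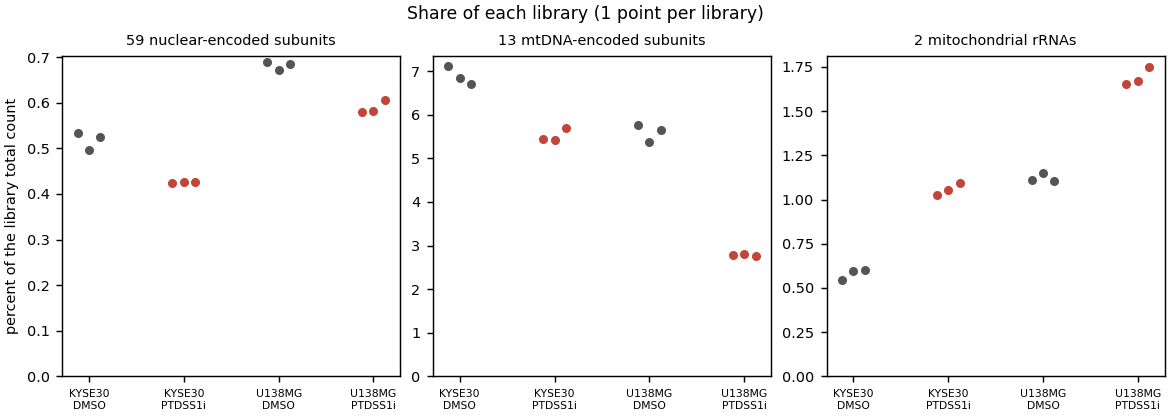
Percent of a library's total count (y axis, from 0) taken by the 59 nuclear-encoded members, the 13 mtDNA-encoded subunits and the mitochondrial ribosomal RNAs, with 1 point per library, DMSO in grey and PTDSS1i in red. On this scale of library totals the first 2 groups of genes lie lower under PTDSS1i in both lines, the ribosomal RNAs lie higher, and the mtDNA-encoded subunits fall to 2.75-2.80% in the U138MG-labelled libraries.

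Other genes of the pathway were followed by list. The counts of each list stand beside the shares of all genes. These were 30.1% higher and 32% lower in KYSE30, and 33.9% and 33.6% in the U138MG-labelled libraries. Among 20 further nuclear subunits, 0 were higher and 13 lower in KYSE30 (median -0.24), and 5 were higher and 10 lower in the U138MG-labelled libraries (median -0.080, or -0.23 with 2 higher and 13 lower with library totals or upper-quartile factors). ATP5MC1 and ATP5MC3, which encode the same mature ring subunit of complex V, were both lower in both lines. ATP5MC1 measured 39.3, 36.0 and 34.1 CPM under DMSO and 18.7, 19.14 and 17.3 CPM under PTDSS1i in KYSE30, a log2 fold change of -0.99 ± 0.074 (SE, edgeR adjusted p = 1.56e-10), larger than that of any member, and -0.30 in the U138MG-labelled libraries. ATP5MC3 changed by -0.35 and -0.51. ATP5MK, a small subunit of the synthase membrane part, went from 47.9 ± 3.94 to 74.2 ± 5.24 CPM (SD, n = 3) in the U138MG-labelled libraries, 0.63 ± 0.061 (SE, edgeR adjusted p = 3.70e-08).

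Of 9 tissue isoforms and paralogues 4 were tested in each line. COX7A2L, a paralogue of COX7A2 that joins complexes into supercomplexes, was higher in both lines (0.29 ± 0.062 (SE, edgeR adjusted p = 3.62e-04) and 0.33 ± 0.042 (SE, edgeR adjusted p = 7.87e-08)). CYCS, cytochrome c itself, went from 182 ± 17.8 to 350.0 ± 14.6 CPM (SD, n = 3) in the U138MG-labelled libraries, 0.94 ± 0.074 (SE, edgeR adjusted p = 2.81e-05), and was not called in KYSE30 (-0.16). COX6B2, the testis form of a complex IV subunit, was called higher in both lines at levels close to none, 0.244, 0.151 and 0.0849 CPM under DMSO and 0.652, 0.815 and 0.783 CPM under PTDSS1i in KYSE30 and 0.199, 0.213 and 0.0886 CPM under DMSO and 1.40, 1.20 and 1.24 CPM under PTDSS1i in the U138MG-labelled libraries.

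Assembly factors, which build the complexes without staying in them, were higher in 6 and lower in 28 of 52 tested in KYSE30 (median -0.30), and higher in 24 and lower in 14 of 53 in the U138MG-labelled libraries (median 0.16). In the latter, library totals and upper-quartile factors each gave 15 higher and 17 lower, with medians of 0.011 and 0.012. NDUFAF4, for complex I, measured 14.9, 12.8 and 16.6 CPM under DMSO and 7.68, 7.13 and 7.92 CPM under PTDSS1i in KYSE30 and 10.2, 11.2 and 10.8 CPM under DMSO and 12.6, 15.5 and 15.6 CPM under PTDSS1i in the U138MG-labelled libraries, -0.97 ± 0.11 (SE, edgeR adjusted p = 8.36e-08) and 0.44 ± 0.099 (SE, edgeR adjusted p = 3.11e-04) on the log2 scale. NDUFAF6, also for complex I, fell in both (-0.60 and -0.69), and COX17, which delivers copper to complex IV, rose in both (0.35 and 0.82). SCO2, another copper carrier of complex IV, was called higher in KYSE30 by 0.59 and was not called in the other line, but 100.0% of its exon bases are shared with other annotated genes, TYMP among them, so its counts are uncertain.

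Genes of mitochondrial ribosomal proteins, which make the mtDNA-encoded subunits, were higher in 4 and lower in 59 of 74 tested in KYSE30 (median -0.37). Of 77 tested in the U138MG-labelled libraries 35 were higher and 17 lower (median 0.10), a median that turned to -0.048 with library totals and -0.046 with upper-quartile factors, with 20 higher and 30 lower, and 20 higher and 29 lower. The difference between the lines was called higher in the U138MG-labelled libraries for 53 of 76 and lower for 3, and with upper-quartile factors for 45 and 4, against 10 and 9, and 7 and 18, of the 59 subunit members. MRPS6 rose most in KYSE30, from 41.8 ± 1.07 to 137 ± 15.4 CPM (SD, n = 3), 1.71 ± 0.070 (SE, edgeR adjusted p = 5.24e-14), and also rose in the U138MG-labelled libraries (0.61). MRPS10 was not called in KYSE30 (-0.10) and rose by 1.002 in the other. MRPL16 and MRPS14 were lower in both lines (-1.03 and -0.32 for MRPL16, -0.46 and -0.53 for MRPS14).

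Of the regulators of mitochondrial gene expression 1 was higher and 8 lower of 13 in KYSE30 (median -0.32), and 6 were higher and 4 lower of 14 in the U138MG-labelled libraries (median 0.022, which turned to -0.12 with 6 higher and 7 lower with library totals or upper-quartile factors). TFAM, which packages mitochondrial DNA and starts its transcription, was lower in both lines. It measured 79.3, 78.1 and 85.5 CPM under DMSO and 46.1, 45.01 and 50.3 CPM under PTDSS1i in KYSE30, -0.78 ± 0.060 (SE, edgeR adjusted p = 2.48e-10), and 69.2, 69.5 and 72.7 CPM under DMSO and 59.4, 53.6 and 55.5 CPM under PTDSS1i in the U138MG-labelled libraries, -0.33 ± 0.048 (SE, edgeR adjusted p = 7.53e-07). TFB1M, a methyltransferase of mitochondrial ribosomal RNA, was lower in KYSE30 (-0.53) and higher in the other line (0.67), MTERF1, a transcription termination factor, was lower in both (-0.28 and -0.46), and ESRRA, a nuclear receptor of respiratory genes, was higher in KYSE30 by 0.47 and not called in the other line (0.036).

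Among 14 mitochondrial chaperones and proteases 1 was higher and 9 lower in KYSE30 (median -0.43), and 8 were higher and 4 lower in the U138MG-labelled libraries (median 0.11, or -0.034 with library totals and -0.033 with upper-quartile factors, each with 3 higher and 4 lower). LONP1, a matrix protease, measured 69.3, 71.8 and 72.5 CPM under DMSO and 163, 165 and 173 CPM under PTDSS1i in the U138MG-labelled libraries, 1.23 ± 0.039 (SE, edgeR adjusted p = 4.23e-21), and was not called in KYSE30 (-0.038). TRAP1, a chaperone of the HSP90 family, fell in KYSE30 from 239 ± 24.8 to 109 ± 1.93 CPM (SD, n = 3), -1.14 ± 0.062 (SE, edgeR adjusted p = 2.12e-12), and changed by 0.14 in the other line. SPG7 changed by 0.14 and -0.14, and HTRA2 was lower in the U138MG-labelled libraries (-0.28). Of 11 genes for lipids of the inner membrane 1 was higher and 6 lower in KYSE30 (median -0.27), and 7 were higher and 1 lower in the U138MG-labelled libraries (median 0.15). DESeq2 gave 4 higher and 1 lower there with a median of 0.15, while library totals and upper-quartile factors each gave 2 higher and 1 lower with medians of -0.00046 and 0.0010. PRELID3B, a lipid carrier of the intermembrane space, changed by 0.20 and 0.71, STARD7, a phosphatidylcholine carrier, by -0.28 and -0.36, and TAMM41, of cardiolipin synthesis, by -0.40 and 0.0046, the last of which was not called. Of 16 tricarboxylic acid cycle genes 2 were higher and 9 lower in KYSE30 (median -0.25), and 4 were higher and 6 lower in the U138MG-labelled libraries (median -0.018, or -0.17 and -0.16 with 4 higher and 11 lower with library totals and upper-quartile factors). OGDH rose in both lines (0.54 and 0.31), DLD fell in both (-0.37 and -0.50), FH fell in KYSE30 (-0.75) and was not called in the other line, and IDH3A changed by -0.14 and 0.31.

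**Figure D5:**
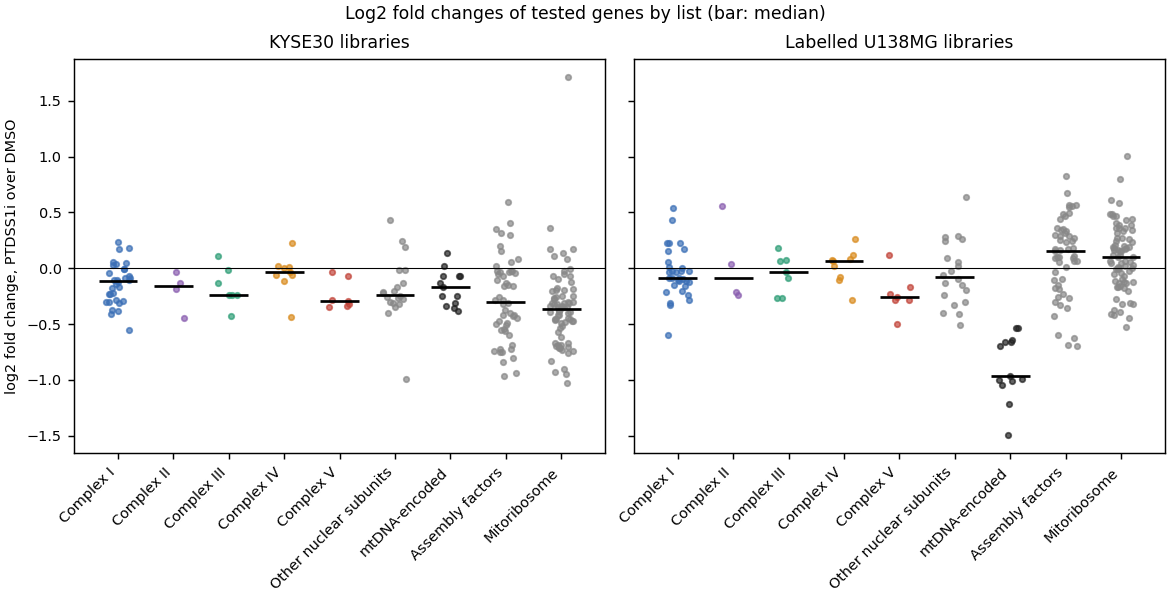
Log2 fold change of PTDSS1i over DMSO (y axis) for each tested gene of the 5 complexes, further nuclear subunits, mtDNA-encoded subunits, assembly factors and mitochondrial ribosomal proteins (x axis), with a bar at each median, in KYSE30 (left) and in the U138MG-labelled libraries (right). The mtDNA-encoded subunits stand lowest on the right, with a median of -0.96, while the complexes lie between -0.26 and 0.062.

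Per kilobase of the main transcript, the level of the members under DMSO also differed between complexes. The median over members was highest in complex IV, 144 CPM per kilobase in KYSE30 and 165 in the U138MG-labelled libraries, followed by complex V with 112 and 104 and complex III with 89.3 and 81.1. Complex I stood at 31.1 and 62.8, and complex II at 13.1 and 53.6. The KYSE30 values of complexes I and II hold the genes with few counts described above. Those of complexes IV and V hold COX6A1 and ATP5PO, with the overlap described above. All these levels depend on the annotated transcript chosen as main, which was long for some genes. It had 13566 bases for SDHC, 11819 for NDUFS1, 8363 for NDUFA9, 5818 for ATP5F1A and 5575 for UQCRB. SDHC thus stood at 3.76 and 12.1 CPM per kilobase, and the complex II median is over only 4 genes. The mtDNA-encoded subunits had medians of 3905 and 3955 on the same scale.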

How the data were processed

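The authors deposited raw counts, unscaled integers, as 1 table for each line with no normalization. Per the submitters' processing notes, reads were handled with Trimmomatic, STAR and featureCounts on hg38; their versions, the annotation and whether strand was used are not given in the sources used here. The 2 tables list 30984 and 78691 genes. The KYSE30 growth medium is on every label, while the paper gives another medium for U138MG.

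Groups came from the labels. Genes were kept by filterByExpr (minimum count 10, minimum total 15), scaled by TMM and tested within each line by edgeR 4.0.16's robust quasi-likelihood test in R 4.3.3, with Benjamini-Hochberg adjustment over all tested genes and a threshold of 0.05. Line differences were tested as the interaction of line and treatment over genes in both tables. CPM use TMM factors, and marker sums and shares use library totals. Scripts were tested on simulated data. Promoters came from RefSeq (GRCh38.p14), and exon overlaps from GENCODE. Replicates of a group differed by more than sampling noise in every pair.

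The members and gene lists were chosen with earlier results of these data known. Members are given with values in every library by rule: the largest called rise and fall of each complex in each line, calls in opposite directions, the 5 smallest p of the line difference, and members with near copies or under 5 CPM. The largest called changes of each other list, and each mtDNA-encoded subunit, are named with values or log2 fold changes. SDHC, COX4I1, NDUFB1, UQCRH, UQCRFS1, ATP5F1C, ATP5PO, COX7A2L and CYCS were added after their values were seen. So were the counts of NDUFA9 and NDUFA11 and the markers KRT5, KRT14, KRT15, PKP1, SLC1A3, VIM, FN1 and SPARC.

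Alternatives were library totals, upper-quartile factors, DESeq2 1.42.0, other filters and thresholds, a replicate block, both lines fitted together and each library left out, and, added after seeing the data, mtDNA-encoded genes left out. Depth limits the precision through counting error only where genes have few counts.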

Additional observations from a re-analysis of the deposited data

Results flagged for a closer look

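The treatment effect differed between the lines, by the interaction test of edgeR over 18405 genes, for 19 of 59 members. It also differed for all 13 mtDNA-encoded subunits and 20 other pathway genes named in the report. Of all genes tested 49.9% were called, a larger share than that of the members. Most of the 20 other genes were named for the largest rise or fall in 1 line, a choice that favours a difference between the lines. Values are log2 differences of the PTDSS1i effect, U138MG minus KYSE30, and their causes were not tested.

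Among complex I members the difference was 0.73 for NDUFS8, 0.71 for NDUFS6, 0.47 for NDUFS5 and 0.23 for NDUFA12, and -0.54 for NDUFB1, -0.30 for NDUFB11, -0.28 for NDUFB10, -0.27 for NDUFA1 and -0.22 for NDUFA5. It was 0.66 for SDHB in complex II. In complex III it was 0.30 for CYC1, 0.27 for UQCRQ, 0.27 for UQCRFS1, 0.17 for UQCRC2 and -0.29 for UQCRB. In complex IV it was 0.32 for COX8A and -0.33 for COX6A1, and in complex V -0.29 for ATP5F1C and -0.25 for ATP5PB. Members of complexes I, III and IV thus differed in both directions, those of complex V in 1 direction only.

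Every mtDNA-encoded subunit was lower in the U138MG-labelled libraries, by -1.17 for MT-CO2, -1.15 for MT-CYB, -1.10 for MT-ND3, -0.92 for MT-CO3, -0.88 for MT-ATP8, -0.87 for MT-ND6, -0.80 for MT-CO1, -0.63 for MT-ND4L, -0.62 for MT-ND5, -0.51 for MT-ND1, -0.45 for MT-ND4, -0.38 for MT-ND2 and -0.26 for MT-ATP6.

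Of the other pathway genes, the difference was above 0 for NDUFAF4 (1.37), TRAP1 (1.24), LONP1 (1.23), CYCS (1.06), TFB1M (1.16), MRPS10 (1.06), MRPL16 (0.67), ATP5MC1 (0.65), FH (0.62), PRELID3B (0.47), COX17 (0.43), IDH3A (0.42), TFAM (0.41) and ATP5MK (0.40). It was below 0 for MRPS6 (-1.14), ESRRA (-0.48), SCO2 (-0.45), HTRA2 (-0.42), SPG7 (-0.32) and OGDH (-0.27).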

How the results depend on the processing

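Most directions held, and the scaling was the choice that moved most values. With library totals alone 0 members were higher and 41 lower in KYSE30, and 4 higher and 43 lower in the U138MG-labelled libraries. Upper-quartile factors gave 4 higher and 42 lower in the latter. The medians of complexes I to V with library totals were -0.22, -0.27, -0.34, -0.14 and -0.40 in KYSE30 and -0.23, -0.23, -0.18, -0.085 and -0.41 in the U138MG-labelled libraries, where upper-quartile factors gave -0.23, -0.23, -0.18, -0.083 and -0.40. Every value in these settings includes the shift of the median over all genes given in the report. With no filter on low counts the medians of complexes III and V in the U138MG-labelled libraries were -0.0040 and -0.23, and with at least 10 counts in every library that of complex V was -0.28. A fold over 2 left 0 members higher and 0 lower in each line and 0 for the difference between the lines, and an adjusted p under 0.01 left 1 higher in KYSE30. Leaving out the mtDNA-encoded genes, an alternative added after the data were seen, changed no count of members by more than 1 and no direction.

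Leaving out 1 library at a time gave 1 to 3 members higher and 21 to 29 lower in KYSE30, 10 to 14 higher and 18 to 26 lower in the U138MG-labelled libraries, and 16 to 22 called for the difference between the lines. The medians of complexes I to V ranged over -0.16 to -0.095, -0.20 to -0.090, -0.27 to -0.21, -0.11 to 0.011 and -0.34 to -0.25 in KYSE30, and over -0.093 to -0.028, -0.099 to -0.057, -0.041 to -0.014, 0.0082 to 0.10 and -0.27 to -0.21 in the U138MG-labelled libraries. The complex IV median of KYSE30 was lowest without DMSO library 2. Whichever library was left out, 18 members stayed called lower and 0 higher in KYSE30, and 18 lower and 9 higher in the U138MG-labelled libraries.

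With library totals or upper-quartile factors 12 of the 59 members turned in direction in the U138MG-labelled libraries, with reported values of up to 0.12, of which COX4I1, COX7C and ATP5PD had been called, and 7 and 3 turned in KYSE30, none of them called. Without DMSO library 1 the direction of 7 members turned in KYSE30, with reported sizes of up to 0.11. None of these settings called a member in the direction opposite to its reported call. The cause of the turns below was not tested. In KYSE30 NDUFA13 was 0.0035 with DESeq2, 0.039 with both lines fitted together and -0.15 to 0.089 with a library left out. UQCRB was 0.023 with both lines together and -0.057 to 0.039 with a library left out. COX6A1 was -0.10 with library totals, -0.022 with upper-quartile factors, -0.0083 with no filter and -0.046 to 0.086 with a library left out, and ATP5PD was -0.14 to 0.00097. In the U138MG-labelled libraries NDUFA1 was -0.14 with library totals and with upper-quartile factors, -0.019 with the stricter filter and -0.060 to 0.076 with a library left out, and ATP5PD was -0.029 with library totals and -0.027 with upper-quartile factors.

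The replicate numbers paired the libraries weakly at most. Deviations of libraries with the same number correlated at 0.075, 0.072 and 0.020 in KYSE30 and 0.0088, -0.0029 and 0.048 in the U138MG-labelled libraries. Libraries with different numbers correlated at -0.076 to 0.0061 in KYSE30, below each same-number value, and at -0.064 to 0.056 in the U138MG-labelled libraries. With the replicate number as a block 4 members were higher and 24 lower in KYSE30 and 12 higher and 24 lower in the U138MG-labelled libraries, and COX6A1 in KYSE30 was -0.00048.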
